A study of Mus musculus with 12 samples.

Results

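Fibroblast growth factor (FGF) signaling in the mouse embryo was followed through 10 genes: the secreted ligands Fgf3, Fgf8 and Fgf15, the receptor tyrosine kinases Fgfr1, Fgfr2 and Fgfr3, the feedback inhibitors Spry2, Spry4 and Dusp6, and the ETS transcription factor Etv4. The genes were listed by symbol, with no measured value in the rule, and were found through their GENCODE transcripts among the 22467 transcripts of the count table. All 10 were present, each as 1 canonical transcript, and all 10 were among the 12576 transcripts that passed the filter on low counts (above 0.75 CPM, counts scaled to the size of their library, in 3 or more RPF libraries). Because 1 transcript stood for each gene, the alternatively spliced receptor forms, which differ in the ligands they bind, could not be separated.

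The embryos were whole single E8.5 embryos on a C57BL/6 background, 3 wild-type and 3 Rpl10a LOF/LOF. The LOF allele lowers the function of the ribosomal protein RPL10A (uL1) without removing it: an intronic deletion made by CRISPR in injected embryos leads to a protein with an extended N terminus. It is carried in the germline, so every cell of the embryo is affected and no Cre driver is involved. At this stage the mutant embryos could not be told from wild-type embryos by eye, before a shortened trunk appears. Each lysate was divided, and gave 1 library of ribosome-protected footprints (RPF) from ribosome profiling and 1 RNA-seq library (RNA), 12 libraries in all. The comparison asks which transcripts carry more or fewer ribosomes when RPL10A function is reduced, and whether their RNA differs as well.

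FGF ligands bind receptor tyrosine kinases together with heparan sulfate, and the receptors signal through RAS and the ERK kinases to ETS factors such as Etv4. The same signal switches on its own inhibitors: the Sprouty proteins act on the pathway upstream of ERK, and Dusp6 is a phosphatase that removes the activating phosphates from ERK. In the E8.5 embryo Fgf8 is produced in the tailbud and at the boundary of midbrain and hindbrain, Fgf3 in the hindbrain, and Fgf15 in the neural tube. FGF signaling from the tailbud keeps presomitic mesoderm immature while the trunk extends.

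The annotated start codons of these mRNAs are given here with the bases around them, as a description of the transcripts. RPF counts leave out the first codons of the coding sequence, so the bases shown lie outside the counted sequence. The sequences run 5′ to 3′ on the mRNA strand of the GENCODE transcripts of GRCm38, with 9 bases on either side of the ATG. The start of Spry4, whose identifier matched the annotation in another version, is not shown here. The UTR values of Spry4 below, and the lengths behind its levels per kb and its ratio, are from that version. Capitals mark the ATG, the base 3 places before it and the base directly after it.
Fgf3: gatgccGggATGGgcctgatc
Fgf8: ccgcgcGccATGGgcagcccc
Fgf15: cgaggtGtcATGGcgagaaag
Fgfr1: agaactGggATGTggggctgg
Fgfr2: agtgtgCagATGGgattaccg
Fgfr3: tctggaGccATGGtagtcccg
Spry2: caagacCtgATGGaggccaga
Dusp6: tcgaccCccATGAtagatacg
Etv4: agcggcCggATGGagcggagg

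In the favoured vertebrate context a purine stands 3 bases before the ATG and a G directly after it. A purine stood at the first position in 5 of these 9 transcripts. The share was 85.0% of the 18866 coding transcripts of the count table that start with ATG, before the filter on low counts. A purine and a following G were both present in 4 of the 9, namely Fgf3, Fgf8, Fgf15 and Fgfr3, against 42.7% of the same transcripts. Fgfr2, Spry2, Dusp6 and Etv4 had a C at the first position. The 5′UTRs of the 10 transcripts were 113 to 759 nt long, with a median of 288 nt against 175 nt over all transcripts tested. Their median GC content was 68.6% against 64.8%, and 6 of the 10 lay above that value. An ATG upstream of the start codon was present in 8 of the 10 transcripts, Fgf8 and Fgf15 being the exceptions, against 49.8% of the transcripts tested.

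RPF libraries held 7041357 to 10863499 counts and RNA libraries 9132521 to 26561843. The targeted gene was examined first. Rpl10a RPF lay between 1562 and 1679 CPM in wild-type and between 940 and 1125 CPM in Rpl10a LOF/LOF embryos, which is -0.64 ± 0.07 on the log2 scale (estimate ± standard error, FDR = 0.00689). Rpl10a RNA fell by 0.23 on the log2 scale (standard error 0.06, FDR = 0.0678). Here and below, FDR values are from the quasi-likelihood test of edgeR, adjusted over all transcripts tested by Benjamini-Hochberg, and calls were made at FDR below 0.1. Each embryo was a separate animal, so these tests rest on the spread between 3 embryos of each genotype. In the fit the spread of each transcript is drawn towards that of the other transcripts. The genotypes also differed in other measures. The summed RPF level of 4 Y-linked genes was 163 to 181 CPM in the wild-type embryos and 153 CPM in Rpl10a LOF/LOF replicate 2, but 9.33 CPM in replicate 1 and 0.380 CPM in replicate 3. Markers of visceral endoderm, the extraembryonic layer around the embryo, were called lower in RPF for 8 of the 10 tested and in RNA for 10 of 10, with summed RPF levels of 6327 to 8299 CPM in wild-type and 2236 to 4750 CPM in Rpl10a LOF/LOF embryos. Markers of primitive red blood cells were called higher in RPF for 3 of 6, with sums of 834 to 2804 CPM against 3501 to 5757 CPM, and in RNA for 1 of 6, where the sums of 397 to 1682 CPM and 1506 to 2520 CPM overlapped. In whole embryos, fewer cells of a type and less RNA per cell cannot be told apart.

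Levels were first compared between the 10 genes within wild-type embryos, as CPM per kilobase of counted sequence. Dusp6 stood highest on both scales, at 117 ± 6.74 CPM per kb of CDS in RPF and 53.5 ± 0.672 CPM per kb of transcript in RNA (SD, n = 3). In RPF it was followed by Fgf15 at 58.6 ± 2.58, Fgf8 at 38.9 ± 5.27, Fgfr1 at 27.3 ± 1.51 and Fgfr2 at 20.0 ± 1.77 CPM per kb. The ranges of these 5 genes over the wild-type embryos did not overlap. Spry4, Spry2 and Etv4 came next, at 17.1, 12.7 and 11.7 CPM per kb, and each neighbour in the series from Fgfr2 to Etv4 overlapped the next. Fgf3 at 6.38 ± 1.51 and Fgfr3 at 4.85 ± 0.586 CPM per kb were lowest and overlapped.

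The order in RNA was different. Behind Dusp6 came Fgfr1 at 31.9 ± 2.83, Spry2 at 27.6 ± 0.862 and Fgfr2 at 26.8 ± 0.822 CPM per kb (SD, n = 3), the latter pair overlapping. Fgf15, Etv4 and Fgf8 formed a close group at 17.9, 17.4 and 17.0 CPM per kb, in which neighbours overlapped. Spry4 at 9.43, Fgfr3 at 7.49 and Fgf3 at 6.78 CPM per kb were lowest, and the last pair overlapped. Fgf15 and Fgf8 therefore ranked above the receptors in RPF and below Fgfr1 and Fgfr2 in RNA, and Spry2 ranked among the highest in RNA and in the lower part in RPF.

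**Figure D1:**
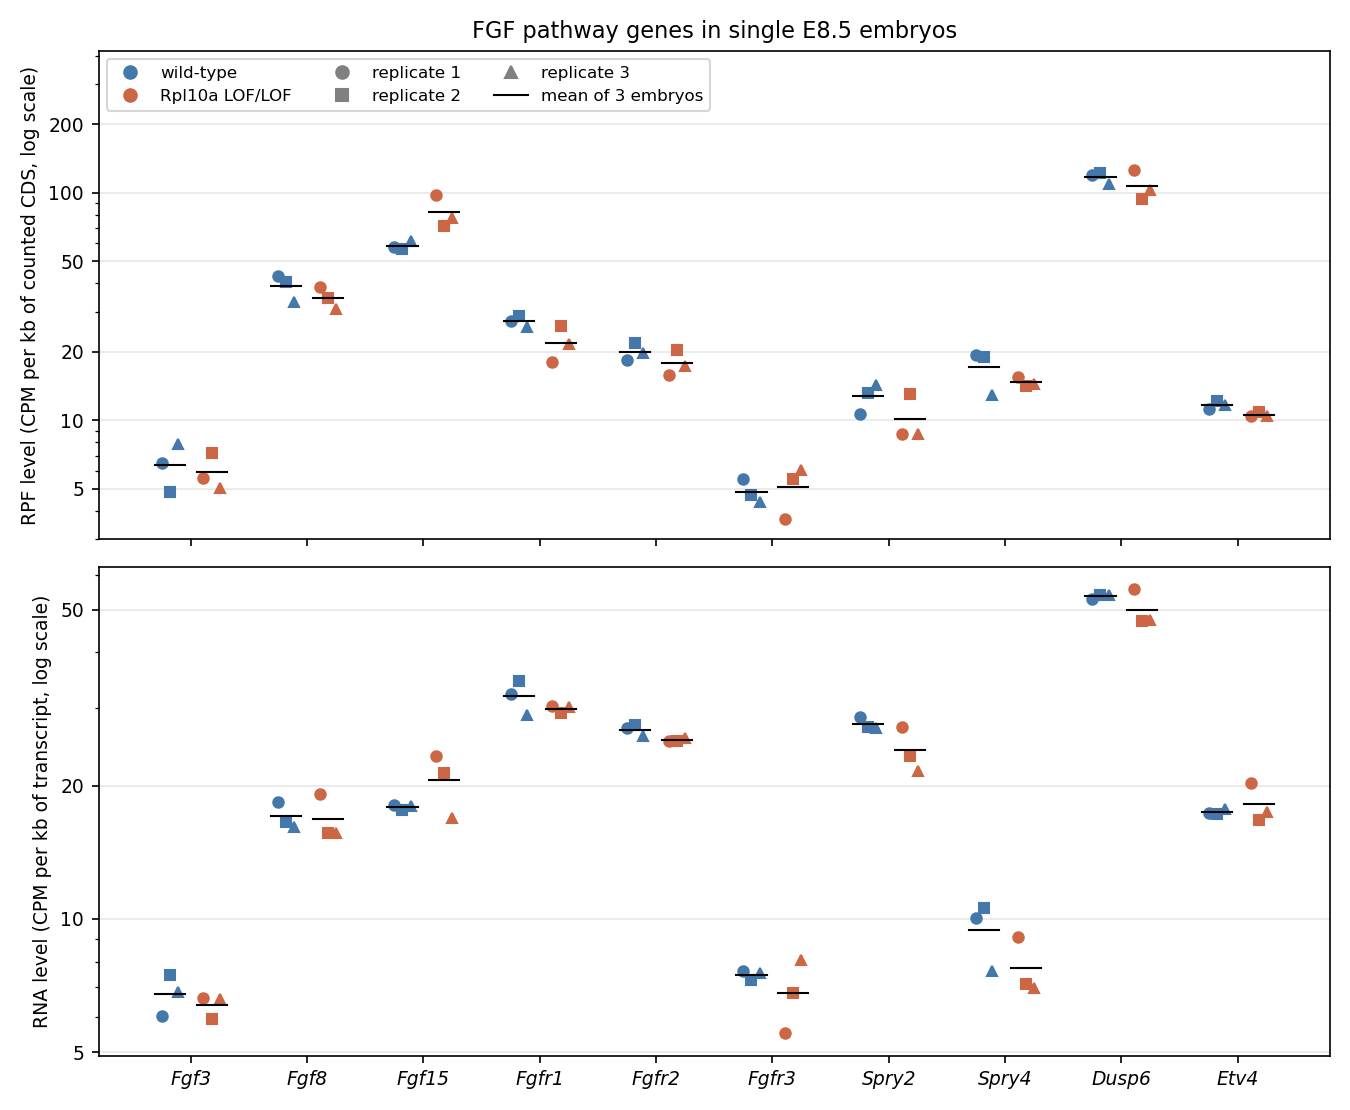
Levels of the 10 genes in each embryo, with RPF as CPM per kb of counted CDS (top) and RNA as CPM per kb of transcript (bottom), both on log axes; points are single embryos, marker shapes give the replicate number and lines the mean of 3 embryos. Fgf15 RPF is the value for which the 3 Rpl10a LOF/LOF embryos all lie above the wild-type embryos, and same-shaped points of the 2 genotypes are different embryos.

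Between genotypes, 1 of the 10 genes was called in RPF, Fgf15, which rose in Rpl10a LOF/LOF embryos. Over all transcripts tested 2.19% were called in RPF, 1.05% as higher and 1.15% as lower. The log2 fold changes of the other genes were between -0.32 and 0.08, and 8 of the 10 were below 0, against 49.1% of all transcripts tested. Their median was -0.15, beside 0.00 over all transcripts tested. An unadjusted p below 0.05 was reached by 2 of the 10, Fgf15 and Fgfr1, against 13.7% of all transcripts. In RNA none of the 10 was called, against 5.02% of all transcripts tested, 1.77% as higher and 3.25% as lower. The RNA log2 fold changes ran from -0.28 to 0.21 with a median of -0.10, 8 were again below 0 (50.6% of all), and Spry2 alone had an unadjusted p below 0.05, against 17% of all.

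**Figure D2:**
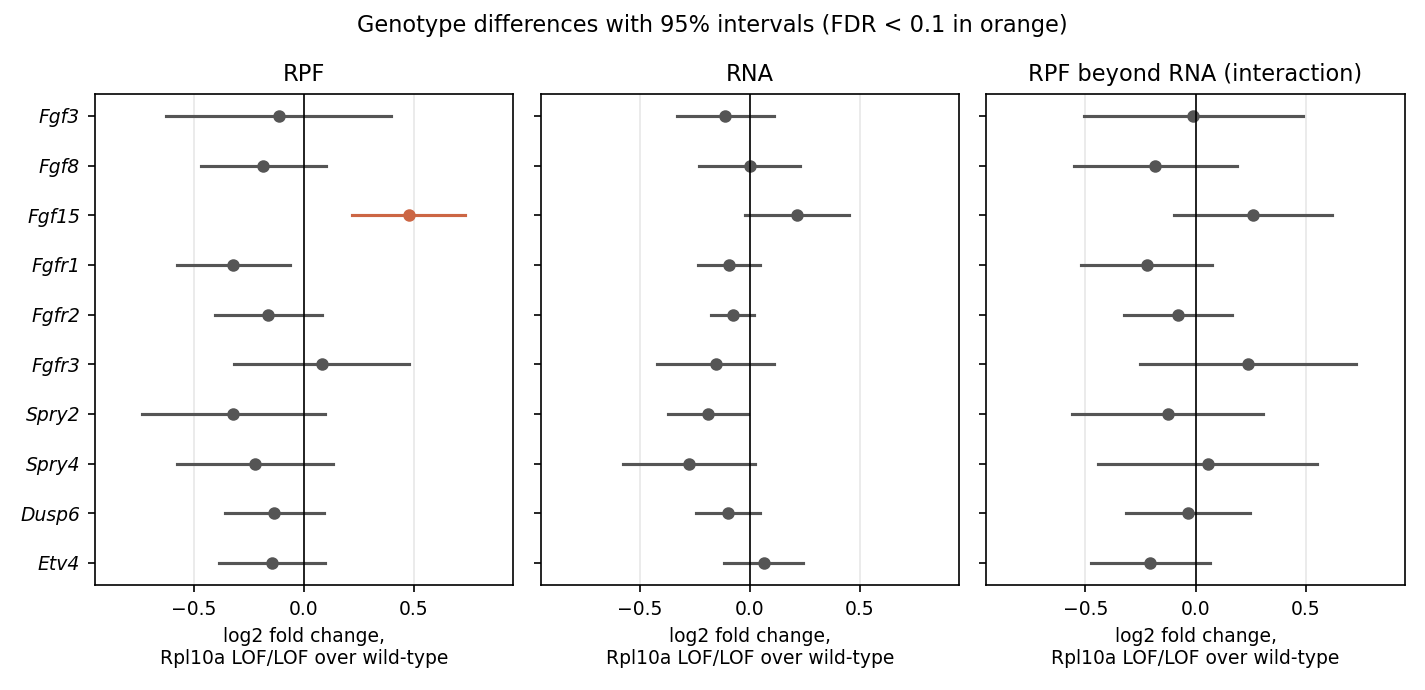
Log2 fold change of Rpl10a LOF/LOF over wild-type embryos for each of the 10 genes, with 95% intervals. Panels give RPF, RNA and RPF beyond RNA (the interaction of genotype and library kind). The intervals were calculated from the estimates and F statistics of edgeR's quasi-likelihood tests. Fgf15 in RPF, at 0.48, is the only estimate that passed FDR below 0.1 (orange).

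Fgf15, the mouse counterpart of human FGF19, is later known as a gut hormone that limits bile acid synthesis in the liver. It lies at chr7:144896531-144900953 on the plus strand of GRCm38, in 3 exons. Its RPF level was 34.6, 33.7 and 36.7 CPM in wild-type replicates 1, 2 and 3 and 58.3, 42.5 and 46.0 CPM in the mutants, Rpl10a LOF/LOF replicates 1, 2 and 3. Every Rpl10a LOF/LOF embryo stood above every wild-type embryo, with replicate 1 highest (exact permutation test, two-sided p = 0.1, the smallest that 3 embryos against 3 allow). This is a log2 fold change of 0.48 (95% interval 0.22 to 0.73, standard error 0.12, FDR = 0.0901), or 39.2% more RPF.

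Fgf15 RNA was 32.7, 31.9 and 32.5 CPM in the wild-type embryos and 42.3, 38.6 and 30.7 CPM in the Rpl10a LOF/LOF embryos. Replicates 1 and 2 lay above the wild-type range and replicate 3 below it. The RNA log2 fold change of 0.21 (standard error 0.11, 95% interval -0.02 to 0.45, FDR = 0.346) was not called. It was 0.32 and past the threshold without Rpl10a LOF/LOF replicate 3 (FDR = 0.0783), 0.11 without replicate 1 (FDR = 0.614), and 0.34 with the Y-linked covariate (FDR = 0.496). RPF beyond RNA differed by 0.26 (standard error 0.17, unadjusted p = 0.141 in edgeR's interaction test), so a change of ribosome occupancy apart from RNA was not shown.

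The Fgf15 call was near the threshold. It was made in 8 of 15 alternative settings, with log2 fold changes from 0.34 to 0.56 over all of them. It was lost when 1 of 5 embryos was left out, with FDR from 0.132 without Rpl10a LOF/LOF replicate 1 to 0.357 without wild-type replicate 1, and held without Rpl10a LOF/LOF replicate 2 (FDR = 0.00996). Over all transcripts the RPF calls moved the same way, from 276 with all embryos to between 4 and 190 in those 5 fits and 1452 without Rpl10a LOF/LOF replicate 2. With the Y-linked genes as a covariate the log2 fold change was 0.37 and the FDR 0.605, and with a correction for CDS GC content the FDR was 0.102.

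**Figure D3:**
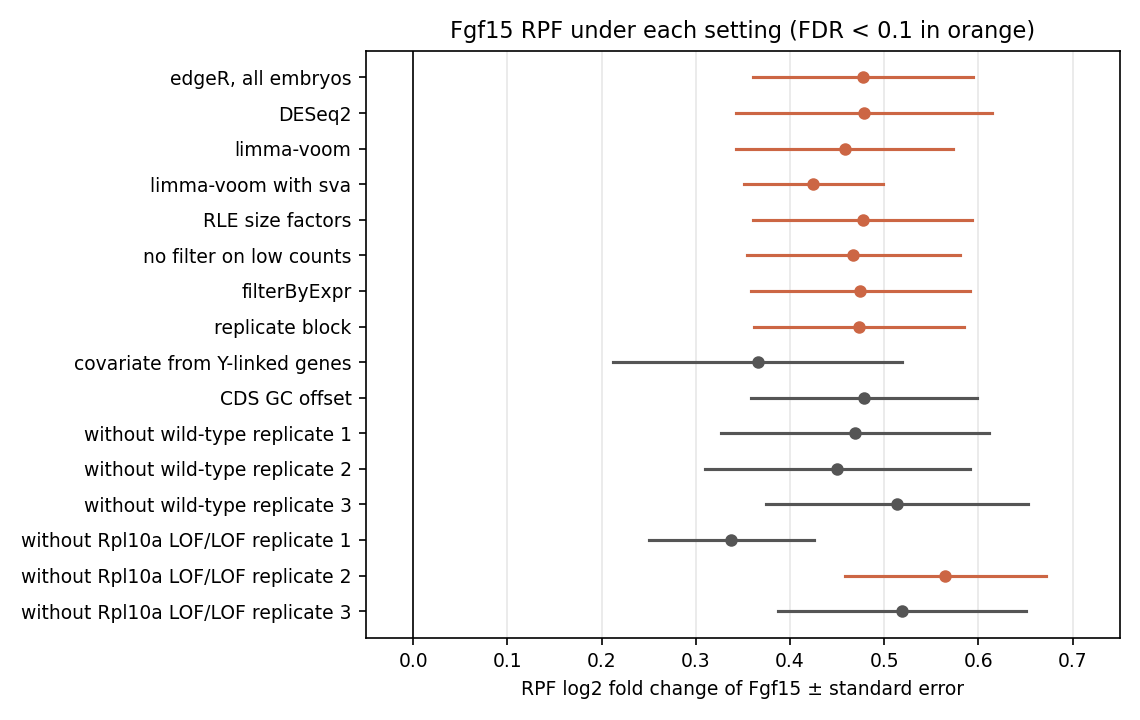
RPF log2 fold change of Fgf15 in Rpl10a LOF/LOF over wild-type embryos, with its standard error, under the reported fit (top) and the 15 alternative settings. All estimates lie above 0, between 0.34 and 0.56, and those in orange passed FDR below 0.1.

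Brain markers were set beside Fgf15 because of where it is made. The summed RPF level of 7 forebrain genes was 37.8 to 48.1 CPM in wild-type embryos and 56.0, 44.3 and 46.3 CPM in mutant replicates 1, 2 and 3, and none of the 7 was called. The sum of 9 midbrain, hindbrain and otic genes was 69.5 to 70.8 CPM in wild-type embryos and 77.1, 58.1 and 59.3 CPM in the mutants. Of these 9 genes, 7 had RPF estimates below 0, against 49.1% of all transcripts tested, and none was called in RPF. In RNA 1 of the 9 was called lower, beside 3.25% of all transcripts tested. Rpl10a LOF/LOF replicate 1, which had the highest Fgf15 RPF and RNA, was the highest of the 6 embryos for both RPF sums and for neither RNA sum. In RNA the forebrain sum was 54.3 to 85.9 CPM in wild-type embryos and 61.5, 54.5 and 208 CPM in the mutants, and the midbrain, hindbrain and otic sum was 126 to 131 CPM and 128, 110.3 and 119 CPM. The part of brain tissue or of the Y-linked difference in the Fgf15 result was not tested.

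Fgf8 codes for the main FGF of the tailbud and of the midbrain-hindbrain boundary, and lies at chr19:45736798-45742874 on the minus strand, in 6 exons. Its RPF level was 29.2, 27.4 and 22.3 CPM in wild-type and 25.9, 23.2 and 20.7 CPM in Rpl10a LOF/LOF embryos. The groups overlapped, and the log2 fold change of -0.18 (95% interval -0.47 to 0.10) was not called (FDR = 0.579). Fgf8 RNA was 20.5, 18.5 and 18.02 CPM against 21.4, 17.4 and 17.5 CPM, with means of 19.0 ± 1.33 and 18.8 ± 2.31 CPM (SD, n = 3) and an interval for the log2 fold change of -0.23 to 0.23. A fall of Fgf8 RPF by more than 0.47 on the log2 scale therefore lay outside the interval.

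The tailbud, in which Fgf8 is made, was examined through 12 marker genes. Their summed RPF level was 286, 300.1 and 272 CPM in wild-type and 244, 213 and 215 CPM in Rpl10a LOF/LOF embryos, and 3 of the 12 were called lower, beside 1.15% of all transcripts tested. The sums did not overlap. In RNA they were 378 to 408 CPM and 344 to 374 CPM, and 1 of the 12 was called lower, beside 3.25%. Fgf8 was not called on either scale while these sums were lower in each mutant embryo, and the difference between Fgf8 and the markers was not tested.

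Fgf3, a ligand of the hindbrain and inner ear, was the member with the fewest footprints, 26 to 51 RPF counts a library, and its counting error alone was 19.6% at the lowest count. Its RPF level was 4.39, 3.28 and 5.32 CPM in wild-type and 3.79, 4.89 and 3.42 CPM in Rpl10a LOF/LOF embryos, and the groups overlapped. The 95% interval for the RPF log2 fold change, -0.63 to 0.40, was wide, and a difference within it was not detectable at this depth. Its RNA was 15.6 ± 1.66 and 14.7 ± 0.885 CPM (SD, n = 3). Fgf3 lies at chr7:144838595-144844436 on the plus strand, 52.1 kb from Fgf15. Fgf4, which codes for a tailbud ligand, lies between them and had 3 to 10 RPF counts a library, too few for the filter. The neighbours Fgf3 and Fgf15 had RPF log2 fold changes of -0.11 and 0.48, with intervals that overlap.

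Among the receptors, Fgfr1 is the receptor of the tailbud and presomitic mesoderm. It lies at chr8:25518759-25575718 on the plus strand and has 18 exons in the counted transcript. Its RPF level was 65.8, 69.4 and 62.1 CPM in wild-type replicates 1, 2 and 3 and 43.3, 62.3 and 52.0 CPM in mutant replicates 1, 2 and 3. Replicates 1 and 3 lay below all wild-type embryos, and replicate 2 just above the lowest of them. The log2 fold change of -0.32 (95% interval -0.58 to -0.06, standard error 0.12) was not called (FDR = 0.256). Without replicate 2 it was -0.45 (FDR = 0.0168), and with surrogate variables from sva it was -0.27 (FDR = 0.0331), both past the threshold. It shrank to -0.21 without replicate 1 (FDR = 0.372) and to -0.14 with the Y-linked covariate (FDR = 0.858). Its RNA was 162, 174 and 145 CPM against 152, 147 and 151 CPM, with a log2 fold change of -0.10 (FDR = 0.500), and all 3 mutant embryos lay within the wild-type range.

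Fgfr2, a receptor of epithelia and of the early limb and neural tissue, lies at chr7:130162451-130266263 on the minus strand. Footprints of Fgfr2 came to 39.0, 46.5 and 41.8 CPM in wild-type and 33.7, 43.2 and 36.6 CPM in Rpl10a LOF/LOF embryos, again with replicate 2 inside the wild-type range and the others below it. The log2 fold change was -0.16 (95% interval -0.40 to 0.08, FDR = 0.568). Its RNA was 116, 118 and 112 CPM against 109, 109 and 110 CPM. The RNA groups did not overlap, but the difference was small, at -0.08 (standard error 0.04, FDR = 0.425). Groups without overlap in RNA were found for 1 of the 10 genes, and for 22.8% of all transcripts tested, 12.6% with the mutants lower.

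Fgfr3, which later restrains growth of cartilage, lies at chr5:33721724-33737068 on the plus strand. Of these 3 receptors it had the lowest level, and was the only one with an RPF estimate above 0. Fgfr3 had 12.9, 11.002 and 10.2 CPM of RPF in wild-type and 8.60, 12.9 and 14.2 CPM in Rpl10a LOF/LOF embryos, so that replicate 1 was the lowest and replicate 3 the highest of all 6. The log2 fold change was 0.08 (95% interval -0.32 to 0.48, FDR = 0.895). The same embryos were lowest and highest in RNA, at 23.4 and 34.3 CPM, beside 31.0 to 32.4 CPM in the wild-type embryos.

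The Sprouty genes are induced by FGF signals and code for inhibitors of the RAS pathway. Spry2 (chr14:105891947-105896819, minus strand) had 9.51, 11.7 and 12.7 CPM of RPF in wild-type and 7.72, 11.6 and 7.70 CPM in Rpl10a LOF/LOF embryos. Replicate 2 was within the wild-type range and the others were below it, as for Fgfr1 and Fgfr2. The estimate of -0.32 on the log2 scale (standard error 0.19, FDR = 0.494) was called without replicate 2, at -0.54 (FDR = 0.0859). With the Y-linked covariate it was 0.03 (FDR = 0.984). Spry2 RNA was 59.7, 56.8 and 56.4 CPM against 56.7, 48.7 and 45.0 CPM, with a log2 fold change of -0.19 (95% interval -0.37 to -0.01, FDR = 0.272). Without replicate 1, whose value lay in the wild-type range, this was -0.29 (FDR = 0.0850).

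Spry4 (chr18:38586247-38601415, minus strand) had 16.4, 16.0 and 10.9 CPM of RPF in wild-type and 13.1, 11.99 and 12.2 CPM in Rpl10a LOF/LOF embryos. The 3 mutant embryos were close together and lay inside the wider wild-type range. Its RNA was 47.9, 50.3 and 36.3 CPM against 43.2, 33.8 and 33.1 CPM, with a log2 fold change of -0.28 (95% interval -0.58 to 0.03, FDR = 0.342), the lowest RNA estimate among the 10 genes. Wild-type replicate 3 was low for Spry4 on both scales.

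Dusp6 (chr10:99263231-99267488, plus strand) had the highest level of the 10 per kb of sequence on both scales. Its RPF level was 130.2, 133 and 119 CPM in wild-type and 136, 101 and 112 CPM in Rpl10a LOF/LOF embryos, so that replicate 1 stood above and replicates 2 and 3 below every wild-type embryo. The RPF estimate was -0.13 on the log2 scale (standard error 0.10, FDR = 0.610). In RNA the mutants had the same places relative to the wild-type range, with 148, 151 and 151 CPM against 155, 131 and 132 CPM (log2 fold change -0.10, FDR = 0.497). The Dusp6 difference was called in RPF with surrogate variables, at -0.19 (FDR = 0.0639), and in RNA without replicate 1, at -0.19 (FDR = 0.0894).

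Etv4, the transcription factor at the end of the pathway, lies at chr11:101769742-101785310 on the minus strand. Etv4 RPF levels were 15.7, 17.1 and 16.3 CPM in wild-type and 14.6, 15.2 and 14.6 CPM in Rpl10a LOF/LOF embryos. Every mutant embryo lay below every wild-type embryo, by a small distance, and the log2 fold change was -0.14 (95% interval -0.39 to 0.10, FDR = 0.614). With Fgf15, Etv4 made 2 of the 10 genes whose genotypes did not overlap in RPF, against 19.4% of all transcripts tested, 9.92% with the mutants higher and 9.45% with the mutants lower. Etv4 RNA was 40.5, 40.3 and 41.3 CPM against 47.4, 39.2 and 40.8 CPM, with an estimate on the other side of 0, at 0.06 (FDR = 0.756).

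The ratio of RPF per kb of CDS to RNA per kb of transcript was then taken within each embryo, which gives the ribosome occupancy of a transcript relative to its RNA. Over all transcripts tested the wild-type mean of this ratio had a median of 1.68, with quartiles of 0.984 and 2.61. Fgf15 had the highest ratio of the 10, at 3.28 ± 0.125 in wild-type embryos (SD, n = 3), above 85.6% of the transcripts tested. Fgf8 at 2.28 ± 0.207, Dusp6 at 2.19 ± 0.136 and Spry4 at 1.81 ± 0.115 were also above the median. The others lay below the lower quartile: Fgf3 at 0.955, Fgfr1 at 0.859, Fgfr2 at 0.747, Etv4 at 0.671, Fgfr3 at 0.648 and Spry2 at 0.463. All 3 receptors were thus below the lower quartile, and Spry2 was above 6.42% of the transcripts tested.

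The feedback inhibitors were spread over this scale. In each of the 6 embryos the ratio of Spry4 was above that of Spry2, at 1.70 to 1.93 against 0.374 to 0.530 in wild-type embryos. The Spry4 ratio uses the lengths of another version of its transcript. RNA counts cover the UTRs, and RPF counts the CDS without its first 15 and last 5 codons, so that a ratio also depends on how evenly RNA reads cover a transcript. Of the transcripts with a C 3 bases before the ATG, Fgfr2, Etv4 and Spry2 had ratios below 1 and Dusp6 did not, and Fgfr1, Fgfr3 and Fgf3, with a G at that place, were below 1 as well.

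No member had ratios that separated the genotypes, which occurred for 12.1% of all transcripts tested. In the interaction test none of the 10 was called and none had an unadjusted p below 0.05, and no transcript at all was called (0% of 12576, with 4.44% at an unadjusted p below 0.05). The Fgf15 ratio was 3.20, 3.21 and 3.42 in wild-type and 4.18, 3.33 and 4.55 in Rpl10a LOF/LOF embryos (log2 difference 0.28, two-sided exact permutation p = 0.2). Replicates 1 and 3 lay above the wild-type range and replicate 2 within it. The Fgfr1 ratio was 0.850, 0.834 and 0.893 against 0.595, 0.884 and 0.719 (log2 difference -0.25, two-sided exact permutation p = 0.3), with replicates 1 and 3 below the wild-type range. The other 8 genes had log2 differences of -0.20 to 0.20 and exact permutation p of 0.2 to 1. For Rpl10a the ratio was 2.39 ± 0.126 in wild-type and 1.79 ± 0.232 in Rpl10a LOF/LOF embryos (SD, n = 3), without overlap.

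**Figure D4:**
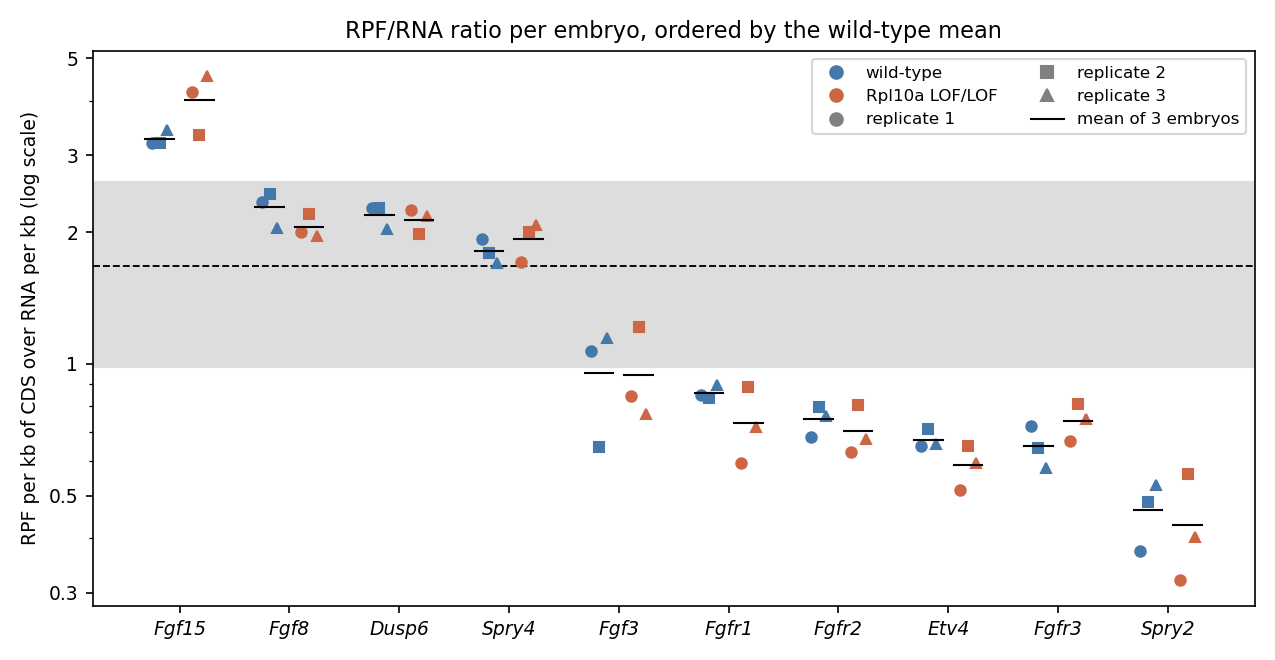
RPF per kb of CDS over RNA per kb of transcript in each embryo, on a log axis, with genes ordered by the wild-type mean; the dashed line and grey band give the median (1.68) and quartiles (0.984 to 2.61) of all transcripts tested. Fgf15, at 3.28 in wild-type embryos, lies above the band, and Spry2, at 0.463, is lowest.

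The 10 genes were also counted by embryo. In RPF, Rpl10a LOF/LOF replicates 1, 2 and 3 lay below all wild-type embryos for 5, 2 and 6 of the 10 genes, beside 35.6%, 32.1% and 33.2% of all transcripts tested. In RNA the counts were 2, 8 and 6 for replicates 1, 2 and 3, beside 31.2%, 28.9% and 34.5%. The pattern seen for Fgfr1, Fgfr2 and Spry2 in RPF, with replicates 1 and 3 below the wild-type range and replicate 2 within it, was described after the values had been seen. It held for 3 of the 10 genes and for 5.68% of all transcripts tested, and for none of the 10 in RNA, where it held for 4%. Replicate 2 was also the mutant embryo with a Y-linked RPF level near the wild-type range. With the Y-linked covariate in the fit, the RPF log2 fold change of Fgfr1 went from -0.32 to -0.14, that of Fgfr2 from -0.16 to -0.0057 and that of Spry2 from -0.32 to 0.03. Because the embryos with low Y-linked levels were all Rpl10a LOF/LOF, the genotype estimate of that fit rests on replicate 2, and genes picked for a replicate 2 within the wild-type range had to move towards 0 in it. These shifts are therefore no test of the Y-linked difference, whose part in the values was not tested.

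The rest of the pathway was described with a list of 86 further genes, of which 71 were tested. In RPF 1 was called higher, the sulfatase gene Sulf2, and 2 were called lower, Klb and Dusp4. In RNA Sulf2 was called higher, and Klb and Map2k1 lower. The shares of called transcripts, 3 of 71 on each scale, stand beside 2.19% in RPF and 5.02% in RNA over all transcripts. The median log2 fold change of the 71 was -0.05 in RPF and 0.01 in RNA. None was called in RPF beyond RNA.

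Sulf2 codes for an enzyme that trims 6-O-sulfate groups from heparan sulfate, the partner of FGF in receptor binding. In RPF it had 137, 145 and 143 CPM in wild-type and 171, 202 and 179 CPM in Rpl10a LOF/LOF embryos (log2 fold change 0.38, standard error 0.07, FDR = 0.0534). Its RNA was 154, 159 and 150.0 CPM against 231, 209 and 217 CPM (log2 fold change 0.50, standard error 0.05, FDR = 0.00161). Both scales rose without overlap, and RNA gave the larger estimate. The RNA call held in all 15 alternatives. The RPF call was lost without Rpl10a LOF/LOF replicate 3 (FDR = 0.135) and without wild-type replicate 1, 2 or 3 (FDR = 0.293, 0.228 and 0.137). The other 17 genes of heparan sulfate synthesis and its carriers were not called on either scale.

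Klb codes for beta-Klotho, the co-receptor for endocrine FGFs such as Fgf15. Klb RPF levels were 18.6, 16.4 and 15.9 CPM in wild-type and 6.12, 11.4 and 4.37 CPM in Rpl10a LOF/LOF embryos (log2 fold change -1.23, standard error 0.26, FDR = 0.0596). Its RNA fell similarly, from 13.5 to 18.2 CPM in wild-type to 3.75 to 7.604 CPM in the mutants (log2 fold change -1.45, FDR = 0.0112). The order of the mutant embryos, with replicate 2 highest and replicate 3 lowest, was that of the visceral endoderm sums, which were 3211, 4750 and 2236 CPM for replicates 1, 2 and 3. The part of visceral endoderm in the Klb result was not tested. The RNA call held in all 15 alternatives, and the RPF call in 9, with FDR of 0.128 to 0.293 in the 5 fits without 1 embryo that lost it and 0.000229 without replicate 2. With the Y-linked covariate the RPF estimate went from -1.23 to -0.55 and was not called (FDR = 0.452). The other 7 receptors and co-receptors tested were not called. Among them was Fgfr4, with log2 fold changes of -0.53 in RPF (FDR = 0.280) and -0.46 in RNA (FDR = 0.216).

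Dusp4 codes, like Dusp6, for a phosphatase of ERK. In RPF, Dusp4 had 109, 125 and 127 CPM in wild-type and 101, 94.8 and 81.9 CPM in Rpl10a LOF/LOF embryos (log2 fold change -0.38, standard error 0.09, FDR = 0.0901). Its RNA was 154, 154 and 145 CPM against 151, 146 and 131 CPM, and was not called (log2 fold change -0.08, FDR = 0.565). RPF beyond RNA differed by -0.30, which did not pass adjustment over all transcripts (unadjusted p = 0.0200 in edgeR's interaction test). The RPF call was lost without Rpl10a LOF/LOF replicate 3 (FDR = 0.277), without wild-type replicate 1, 2 or 3 (FDR = 0.259, 0.356 and 0.283), with the Y-linked covariate (FDR = 0.620) and with the CDS GC offset (FDR = 0.119). Of the 11 other feedback inhibitors, 8 had RPF estimates below 0 and Dusp4 alone was called. Dusp4 and Dusp6 had RPF log2 fold changes of -0.38 and -0.13, and the difference between these genes was not tested.

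Map2k1, which codes for a kinase directly above ERK, was called lower in RNA (log2 fold change -0.23, standard error 0.05, FDR = 0.0429). Its RNA was 136, 144 and 139 CPM in wild-type and 126, 117 and 115 CPM in Rpl10a LOF/LOF embryos. Its RPF had the same estimate of -0.23 and was not called (FDR = 0.181), although its genotypes did not overlap. The RNA call was made in 10 of 15 alternatives and lost with the Y-linked covariate (FDR = 0.403) and without wild-type replicate 1 or 2 (FDR = 0.156 and 0.118) or Rpl10a LOF/LOF replicate 2 or 3 (FDR = 0.111 and 0.114). Map2k1 was the only one of 25 signal transduction genes called on either scale. Map2k2, which codes for another kinase directly above ERK, had log2 fold changes of 0.12 in RNA (FDR = 0.205) and -0.05 in RPF (FDR = 0.824). The RNA of Map2k2 did not overlap between genotypes, with the mutants higher, as for 10.2% of all transcripts tested. Of these 25 genes, 18 had RPF estimates below 0 and 14 had RNA estimates below 0. The 4 other target genes were not called, and of 15 other FGF ligands only 3 had enough RPF counts for a test.

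**Figure D5:**
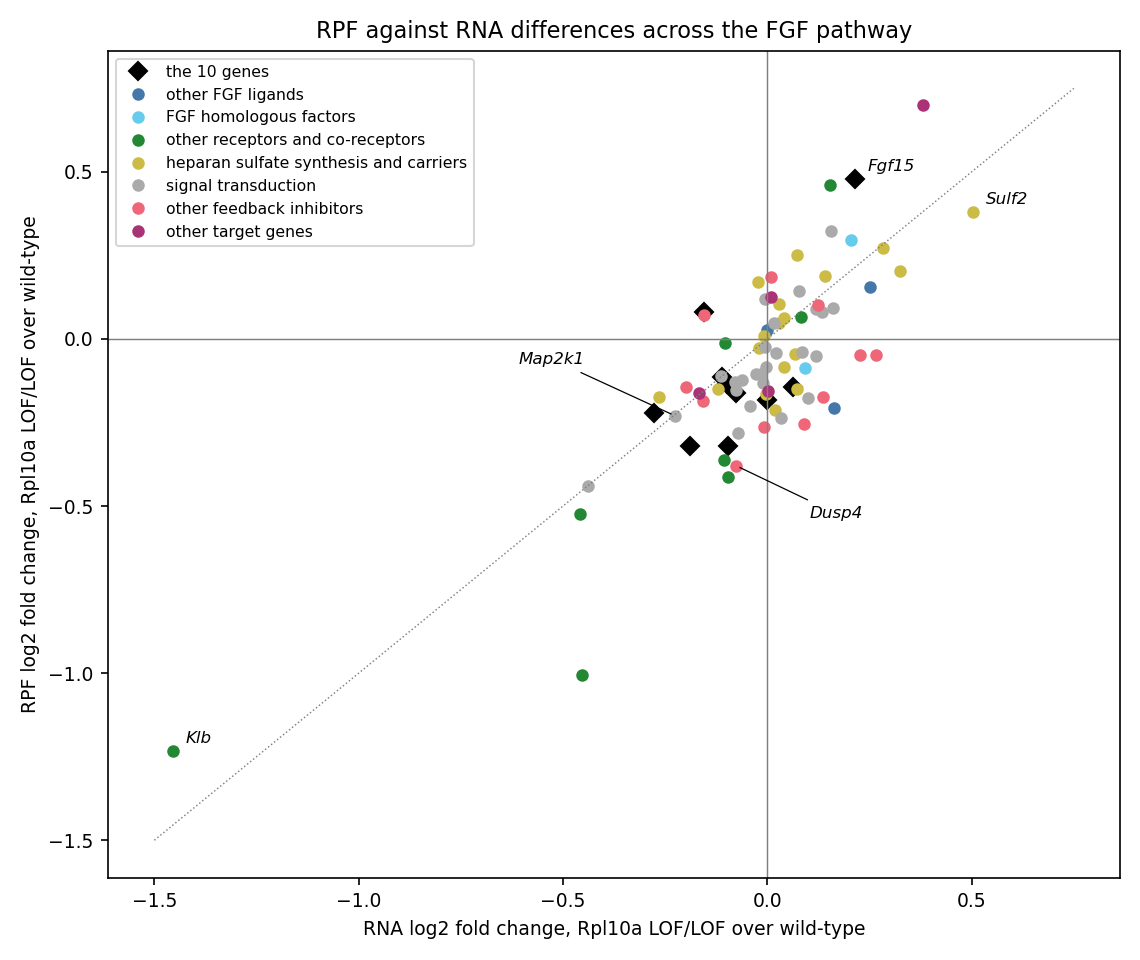
RPF against RNA log2 fold change (Rpl10a LOF/LOF over wild-type) for the 10 genes (black diamonds) and the 71 tested genes of the wider list, coloured by role; the dotted line marks equal change, and genes called on either scale are named. Klb lies far to the lower left, at -1.45 in RNA and -1.23 in RPF, Sulf2 to the upper right, and Fgf15 above the line.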

How the data were processed

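RPF and RNA libraries from the same 6 embryos were used, and samples were assigned to genotype and replicate from the labels. The values are counts deposited by the authors without normalization. The authors trimmed the reads with cutadapt, discarded with Bowtie2 what matched rRNA, tRNA or snRNA, and mapped the remainder to canonical transcripts of GRCm38/mm10, 1 for each gene. After UMI-tools had collapsed PCR duplicates, they counted RPF reads with the A site in the CDS (without its first 15 and last 5 codons) and RNA reads on the whole transcript.

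Transcripts were matched to GENCODE annotation of GRCm38: 21987 of 22467 identifiers with their version, 477 in another version (among them Spry4), and 3 not at all. The filter (above 0.75 CPM in 3 RPF libraries or more), separate TMM normalization of RPF and RNA, and FDR below 0.1 follow the authors' methods. The voom, limma, sva and locfdr steps of those methods are not described in full, so the genotypes were tested with edgeR 4.0.16 in R 4.3.3 (quasi-likelihood, Benjamini-Hochberg adjustment, genotype alone in the model), and RPF beyond RNA as the interaction in 1 model of 12 libraries. The reported fits ran over 12576 transcripts, which held 99.91% to 99.92% of RPF counts and 96.8% to 97.48% of RNA counts. Levels are CPM on TMM-scaled library sizes. Because duplicates were removed, counting errors refer to captured molecules, and cover counting error only. Ratios per embryo were compared by two-sided exact permutation tests, 10 in all, without adjustment, since the smallest p is 0.1.

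For each contrast 15 alternatives were fitted: DESeq2 1.42.0, limma-voom (limma 3.58.1), limma-voom with sva 3.50.0, RLE size factors, no filter, filterByExpr, a replicate block, a covariate from 4 Y-linked genes, a CDS GC offset, and each embryo left out in turn. For levels, raw library totals replaced TMM, and for ratios a pseudocount of 0.1 or 1 CPM was added. On simulated RPF counts of 12447 transcripts the test called 81.6% of changes of 1 and 51.5% of changes of 0.5 on the log2 scale. These counts were drawn independently for each transcript from a negative binomial distribution, without shifts shared by the transcripts of an embryo. The shares therefore do not give the power of the test in these embryos.

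The 10 genes, the pathway and marker lists and the tests were chosen with earlier results of these data known. The genes named were the 10, Rpl10a, genes of the wider list called on any scale, and the 3 genes most like each called member. Fgfr4, Fgf4 and Map2k2 were named after their values were seen. Batches are not given in the sources used here.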

Additional observations from a re-analysis of the deposited data

How the results depend on the processing

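Of the 10 genes, 1 was called in RPF. The count was 3 with limma-voom and sva, 0 with the Y-linked covariate, 0 with the CDS GC offset, and 0 to 3 with 1 embryo left out, 3 being the fit without Rpl10a LOF/LOF replicate 2. In the wider list the 3 RPF calls became 10 with sva, 1 with the Y-linked covariate, and 0 to 16 with 1 embryo left out, 16 again without Rpl10a LOF/LOF replicate 2. In RNA the 0 calls among the 10 genes became 0 to 2 with 1 embryo left out (2 without Rpl10a LOF/LOF replicate 1), and the 3 wider calls 2 to 6 (6 without wild-type replicate 2). RNA calls over all transcripts were 631 in the reported fit and 98 to 594 with 1 embryo left out. They were 441 without Rpl10a LOF/LOF replicate 1 and 460 without wild-type replicate 2. Over all transcripts the RPF calls were 276 in the reported fit, 1306 with sva, 28 with the Y-linked covariate, 257 with the CDS GC offset and 4 to 1452 with 1 embryo left out. The wider RPF count was 0 without each of the wild-type embryos and without Rpl10a LOF/LOF replicate 3. The cause was not tested. No alternative called a gene of either list in RPF beyond RNA. Signs changed as follows. In RPF, Spry2 went from -0.32 to 0.025 and Fgf3 from -0.11 to 0.17 with the Y-linked covariate, and with 1 embryo left out Fgf3 ran from -0.28 to 0.054 and Fgfr3 from -0.068 to 0.25. In RNA, Fgf8 was 0.0010 with DESeq2, 0.016 with limma-voom, 0.00044 with sva, 0.0035 with RLE, 0.0049 without a filter, 0.0015 with filterByExpr and -0.12 to 0.064 with 1 embryo left out. Etv4 RNA was -0.0068 with the Y-linked covariate and -0.031 to 0.12 with 1 embryo left out. In RPF beyond RNA, Fgf3 was 0.018 with limma-voom, 0.14 with sva, 0.37 with the Y-linked covariate and -0.25 to 0.16 with 1 embryo left out. On that scale Fgfr2 was 0.0070 and Spry2 0.029 with sva, both again above 0 with the Y-linked covariate, at 0.083 and 0.20, and with 1 embryo left out Spry2 ran from -0.38 to 0.054 and Dusp6 from -0.084 to 0.0071. Fgf15 and Fgfr1 kept their direction in all 15 alternatives on each scale. Raw library totals in place of TMM scaling moved 6 RNA means by more than 1 SD, to 31.5 (Fgf15), 31.0 (Fgfr3), 146 (Dusp6) and 39.7 CPM (Etv4) in wild-type and to 145 (Fgfr1) and 106 CPM (Fgfr2) in Rpl10a LOF/LOF embryos. A pseudocount of 0.1 or 1 CPM moved no ratio by more than 1 SD.

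Replicate numbers of the genotypes belong to different embryos, whose deviations correlated at -0.10 to 0.08. With a replicate block 1 of the 10 genes was called in RPF (Fgf15, FDR = 0.0612) and 0 in RNA. With the embryo as block in the interaction model, where RPF and RNA of 1 embryo correlated at 0.191 to 0.403 across transcripts, 0 were called.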

Other observations

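Across the 12 libraries of 6 embryos, with log2 CPM centred separately in RPF and RNA, the transcripts whose levels were most like those of Fgf15 were Noc3l (r = 0.973), Rsu1 (r = 0.954) and Zfp280c (r = 0.951). The libraries share embryos and genotype groups, and 37 transcripts had r above 0.9, so the 3 names are a description only.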
